A study of Mus musculus with 16 samples.

Results

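The 6 genes described here, *Kit*, *Rarg*, *Sohlh1*, *Sohlh2*, *Dmrt1* and *Dmrtb1*, belong to the programme by which male germ cells leave the stem cell state and become differentiating spermatogonia. They were chosen by name, 6 of 21887 protein-coding genes of a RefSeq table, and examined for ATAC-seq peaks between their outer bounds and up to 20 kb on each side. ATAC-seq marks open chromatin by the insertion of sequencing adapters with a transposase, and a peak is a stretch called open. The cells were male germ cells isolated from testes of Mvh-Venus transgenic mice, whose fluorescent reporter marks germ cells. At E13.5, E16.5, P0 and P3 (embryonic or postnatal days), germ cells heterozygous for *Morc1*, labelled Morc1 (+/-) and called control below (het in the plots, where KO is the knockout), were compared with *Morc1* knockout cells, labelled Morc1 (-/-). Each of these 8 groups had 2 samples, all carried the reporter, and no group of wild-type *Morc1* is among the samples. The labels do not say whether the 2 samples of a group came from separate animals.

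Germ cells of these stages are gonocytes (prospermatogonia). They enter mitotic arrest in the fetal testis and resume division after birth, when some form stem cells and others differentiate directly. KIT is the receptor tyrosine kinase for KIT ligand, and its appearance at the surface marks differentiating spermatogonia. It is also present on the migrating and fetal germ cells from which gonocytes derive. Retinoic acid triggers the transition, and RARG is the retinoic acid receptor through which spermatogonia respond. SOHLH1 and SOHLH2 are basic helix-loop-helix transcription factors that bind E-box DNA and are needed for differentiation. DMRT1 and DMRTB1 (also called DMRT6) carry the DM DNA-binding domain. DMRT1 restrains entry into meiosis in spermatogonia and DMRTB1 acts at the passage from the mitotic to the meiotic programme.

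The sequences of 5 promoter windows are given below, and the lists with a peak at these starts are described further on. They belong to *Kit* and *Sohlh2*, which had a peak over the start site in every list, and to *Sohlh1*, *Dmrtb1* and *Rarg*, whose start sites had one in some lists. Each is the stretch of 250 bases before a start site annotated by RefSeq on build GRCm38, on the gene's own strand from 5′ to 3′. Capitals mark E-boxes (CANNTG, where N is any base), the motif class that basic helix-loop-helix factors recognise.
*Kit*, plus strand, chr5:75574737-75574986: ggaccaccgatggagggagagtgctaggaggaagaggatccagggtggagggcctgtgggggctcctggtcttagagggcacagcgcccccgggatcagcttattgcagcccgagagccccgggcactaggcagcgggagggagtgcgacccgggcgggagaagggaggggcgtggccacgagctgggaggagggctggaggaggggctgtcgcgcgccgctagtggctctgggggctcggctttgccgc
*Sohlh2*, plus strand, chr3:55181794-55182043: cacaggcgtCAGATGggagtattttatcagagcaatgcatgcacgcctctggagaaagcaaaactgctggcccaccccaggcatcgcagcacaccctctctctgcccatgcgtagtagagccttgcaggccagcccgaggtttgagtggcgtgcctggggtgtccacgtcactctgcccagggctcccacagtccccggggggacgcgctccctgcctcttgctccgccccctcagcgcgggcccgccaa
*Sohlh1*, minus strand, chr2:25847249-25847498: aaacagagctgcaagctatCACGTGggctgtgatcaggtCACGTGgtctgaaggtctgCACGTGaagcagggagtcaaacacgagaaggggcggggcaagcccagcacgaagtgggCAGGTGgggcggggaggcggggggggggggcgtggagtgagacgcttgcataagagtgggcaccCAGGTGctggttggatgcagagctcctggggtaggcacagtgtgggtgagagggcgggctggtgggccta
*Dmrtb1*, minus strand, chr4:107683590-107683839: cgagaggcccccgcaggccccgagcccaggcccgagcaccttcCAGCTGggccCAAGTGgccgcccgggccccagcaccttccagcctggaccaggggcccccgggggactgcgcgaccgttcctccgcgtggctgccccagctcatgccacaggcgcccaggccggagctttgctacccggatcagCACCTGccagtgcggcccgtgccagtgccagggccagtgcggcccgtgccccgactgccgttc
*Rarg*, minus strand, chr15:102257523-102257772: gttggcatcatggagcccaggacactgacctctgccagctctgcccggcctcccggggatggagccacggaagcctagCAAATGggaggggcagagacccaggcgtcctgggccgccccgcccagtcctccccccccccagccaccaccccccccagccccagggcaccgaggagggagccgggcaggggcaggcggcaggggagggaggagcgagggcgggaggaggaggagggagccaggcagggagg

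The *Sohlh1* window held 5 E-boxes, the *Dmrtb1* window 3, the *Sohlh2* and *Rarg* windows 1 each and the *Kit* window 0. Of the 32851 windows of this length in the promoter table, 66.2% held at least 1 E-box and 12.2% at least 3. In the *Sohlh1* window 3 of the 5 E-boxes read CACGTG, starting 231, 211 and 192 bases before the start site. That form occurred at least once in 6.02% of all windows and at least 3 times in 20 windows (0.0609%). Every CACGTG is also counted among the CANNTG matches.

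The other motifs searched, on both strands, were the GC box GGGCGG, the CCAAT box, the TATA form TATAAA, the sequence AGGTCA (to which retinoic acid receptors bind in pairs) and ACANTGT (a core of DM domain sites). GGGCGG was present in all 5 windows shown, 3 times each in *Sohlh1* and *Rarg* and once each in the others, against 32.7% of all windows. AGGTCA was found once in the *Sohlh1* window, where it overlaps the second CACGTG, and once in the *Rarg* window, against 14.0% of all windows. ACANTGT was found once, 34 bases before the *Sohlh1* start (6.47% of all windows). CCAAT (33.8% of all windows) and TATAAA (12.4%) had no match in the windows shown. G and C made up 70.8% of the *Kit* window, 64.8% of *Sohlh2*, 64.4% of *Sohlh1*, 75.6% of *Dmrtb1* and 74.4% of *Rarg*, each above the median of 52.4% over all windows. Other annotated starts of these genes differ. The window of the inner *Rarg* start had 52.4% G and C and 0 GGGCGG, and that of the *Dmrtb1* start at position 107684230 had 42.4% G and C, 0 GGGCGG and 1 CCAAT. A match describes the letters only and does not show that a factor binds there.

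The authors deposited 1 peak list per stage and genotype, with positions but no height or score. The lists of the 2 genotypes were the same in every row at P0 and at P3, so each was used once without a genotype, and 6 lists remained. They held 39559 to 67258 peaks. Read depth is unknown, and with 1 list per group no difference below could be set against the spread between replicates or tested. A peak missing from a list means that none was called there, not that the site was closed. *Morc1* itself had a peak at its lower outer end in 6 of 6 lists, so the lists give no check of the knockout label.

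Markers of cell identity were read in the same way, at start sites, or at the outer ends where the promoter table has no start. Over all protein-coding genes, 54.0% had such a peak in all 6 lists and 31.8% in none. Of 6 germ-cell markers, 4 had a peak there in all 6 lists, among them *Ddx4* (the Mvh gene of the reporter) and *Dazl*. *Dppa4* had one at P0 alone and *Rhox9* in E16.5 knockout cells alone. The Leydig, Sertoli and macrophage genes *Star*, *Cyp17a1*, *Insl3*, *Sox9*, *Amh*, *Ptprc* and *Csf1r* had none in any list. By contrast, *Cyp11a1* (Leydig), *Cldn11* and *Sox8* (Sertoli), *Kdr* and *Tek* (endothelial) and *Myh11* (peritubular) had one in all 6 lists. By list, peaks were present at 3 to 4 of 8 Sertoli, 1 of 6 Leydig, 2 of 4 endothelial, 0 of 4 macrophage and 1 to 2 of 2 peritubular markers. Per list, the share over all genes was 59.5% (P3) to 63.9% (P0). A somatic marker changed between lists in 3 cases: *Fshr* had a peak from E16.5 on, *Acta2* at P0 and P3, and *Wt1* in all lists but P3. Whether other cells contributed to the peaks below was not tested.

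A peak over the start site was present in both E13.5 lists for 3 of the 6 genes and in fewer lists for the others. *Kit*, *Sohlh2* and *Dmrt1* had a peak there in all 6 lists, *Sohlh1* from E16.5 on, *Rarg* in all lists except E13.5 control, and *Dmrtb1* from E13.5 knockout to P0. A start-site peak is one that overlaps the 1000 bp on either side of an annotated start. For *Dmrt1*, which had no entry in the promoter table, both outer ends were used. The number of genes with such a peak was 3 of 6 in E13.5 control, 5 in E13.5 knockout, 6 in both E16.5 lists, 6 at P0 and 5 at P3. Over all 21887 protein-coding genes the share ranged little, from 60.2% (E13.5 control) and 60.7% (E13.5 knockout) to 61.1% (E16.5 control), 62% (E16.5 knockout), 63.9% (P0) and 59.5% (P3). A peak in all 6 lists was found at 54% of genes, a share near the 3 of 6 seen here.

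**Figure D1:**
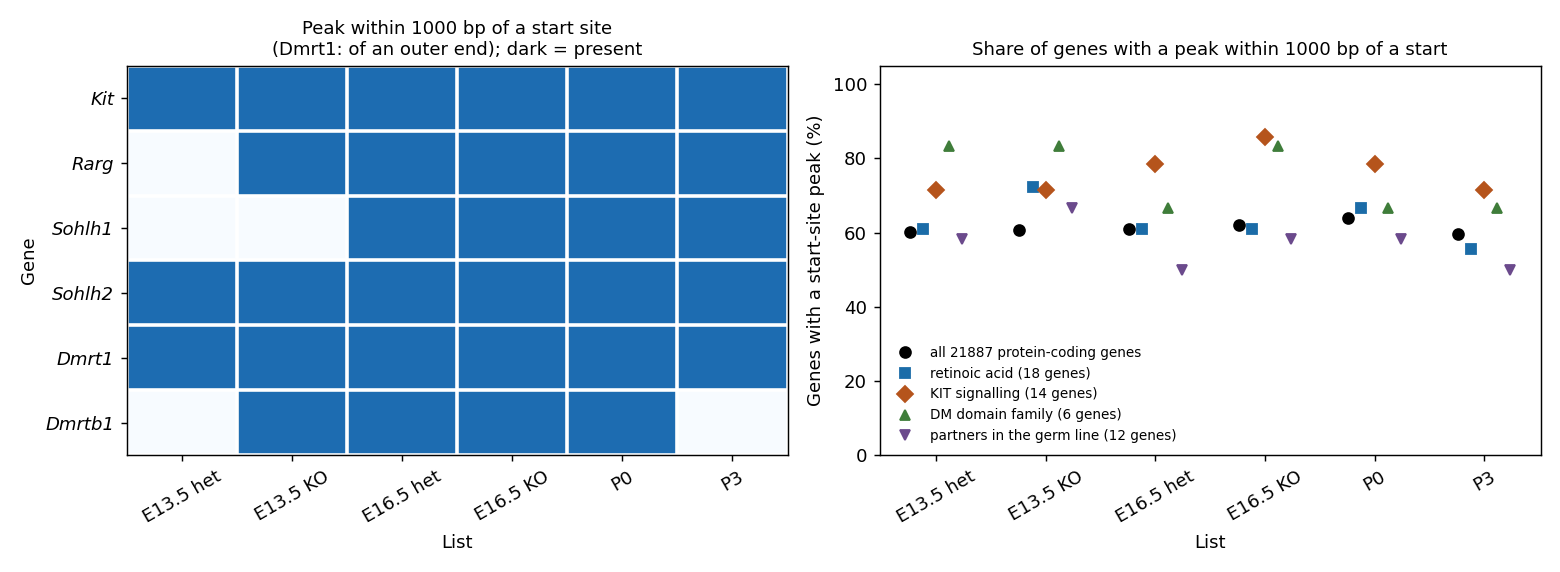
Left, presence (dark) or absence (light) of a peak within 1000 bp of a start site (of an outer end for Dmrt1) for each of the 6 genes (rows) in each list (columns). Right, percentage of genes with such a peak in each list (y axis, from 0) for all 21887 protein-coding genes (black circles) and for 4 lists of related genes; Kit, Sohlh2 and Dmrt1 are dark in every column, while the share of all genes stays between 59.5% and 63.9%.

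*Kit* (gene ID 16590, plus strand) lies at chr5:75574987-75656722, and 10 separate open regions were found in its 121.7 kb window when peaks of any lists that shared at least 1 bp were joined. The region over the start site, chr5:75574635-75575226, was present in all 6 lists. Its peak was centred 102 bp before the start in E13.5 control cells and 95 bp before it in the knockout cells of that stage. In the E16.5 control, E16.5 knockout, P0 and P3 lists the centre lay 14, 11, 50 and 13 bp before the start. The E13.5 peaks thus lay the farthest upstream. Over all peaks that overlapped between control cells of E13.5 and of E16.5, centres lay a median of 37 bp and an upper quartile of 80 bp apart.

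Away from its start, *Kit* had no region in common between the E13.5 and E16.5 lists. Both E13.5 lists held regions 11.9 kb (chr5:75586609-75587137) and 26.8 kb (chr5:75601469-75602022) downstream of the start, and none of the 4 later lists did. Both E16.5 lists held regions 12.9 kb (chr5:75587655-75588158) and 14.7 kb (chr5:75589381-75589941) downstream, found in no list of another stage. These 4 regions, recorded in both genotypes, all lie within the gene. The table used gives no exons, so exon and intron could not be told apart.

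After birth the regions inside *Kit* were absent. At P0 and P3 the single region besides the start site was 5.72 kb upstream (chr5:75568993-75569532), which no embryonic list held. The window therefore had 4 peaks in each of the 4 embryonic lists and 2 in each postnatal list. A drop of at least 2-fold between E16.5 and P0 was seen at 7.12% of the 19464 genes tested against the control list. Against the knockout list it was seen at 8.79% of the 19521 genes tested. *Kit* was the 1 gene of the 6 in each of these comparisons, which share the P0 list. Counting only peaks nearest to a start, *Kit* went from 3 (E16.5 control) to 2, which is no 2-fold drop. Against the E16.5 knockout list it went from 4 to 2, still a 2-fold drop. *Dmrtb1* also dropped at least 2-fold with 50 kb (7 and 6 to 3), and *Sohlh1* with 10 kb (2 and 2 to 1). Regions in a single list were 25.1 kb (E13.5 knockout), 78.5 kb (E13.5 control), 21.4 kb (E16.5 knockout) and 63.9 kb (E16.5 control) downstream. The peak number was equal in the 2 genotypes at each embryonic stage, while 1 of 4 peaks in every embryonic list had no counterpart in the other genotype.

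**Figure D2:**
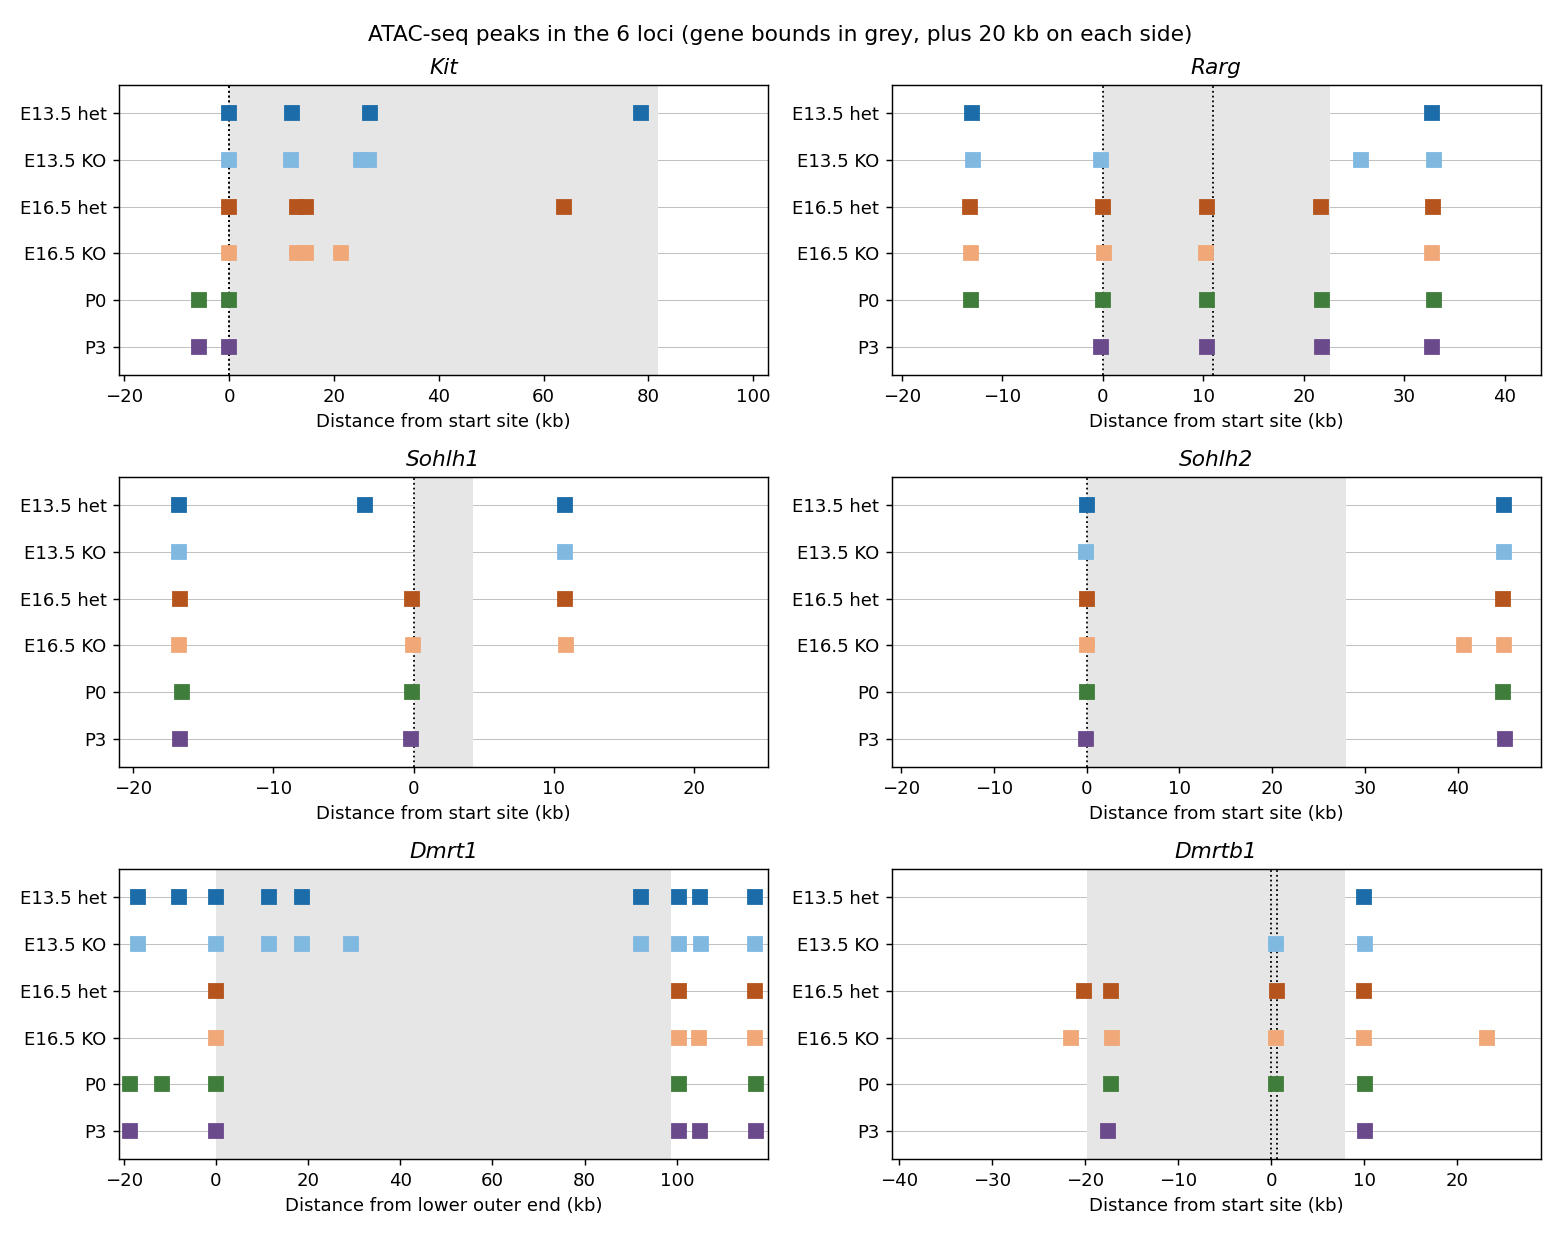
Peak centres (squares, drawn wider than a peak) in the 6 lists (rows) around each gene, against the distance from the annotated start in the direction of transcription (x axis, kb; from the lower outer end for Dmrt1). Grey marks the gene bounds and dotted lines the annotated starts; Kit has regions 11.9 and 26.8 kb downstream at E13.5, 12.9 and 14.7 kb downstream at E16.5 and none inside the gene at P0 and P3.

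*Rarg* (gene ID 19411, minus strand, chr15:102234938-102257522) has 2 annotated starts, and both had a peak within 1000 bp in all 4 lists from E16.5 on. At the outer start, at position 102257522, the region chr15:102257154-102257983 was found in E13.5 knockout cells and in every later list. In E13.5 control cells the nearest peak to this start was 12.8 kb away. At the inner start, at position 102246500, neither E13.5 list had a peak, and from E16.5 on a peak lay 362, 475, 403 and 440 bp upstream (E16.5 control, E16.5 knockout, P0, P3), so that it did not cover the 250 bases before that start. The outer start therefore had a peak in 1 list more than the inner start, that of E13.5 knockout cells. In control cells both starts first had one at E16.5.

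Another *Rarg* region lay at the lower outer end, where transcripts end (chr15:102235399-102236068), in the E16.5 control, P0 and P3 lists and not in E16.5 knockout cells. The window as a whole had 2 peaks in E13.5 control cells, 4 in E13.5 knockout, 5 in E16.5 control, 4 in E16.5 knockout, 5 at P0 and 4 at P3. Some of these belong to neighbours. A region inside *Itgb7*, an integrin gene, was in all 6 lists (chr15:102224326-102225031). One at the start of the lncRNA gene *Gm9918* was in all lists but P3. One at the start of *Itgb7* was in the E13.5 knockout list alone.

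*Sohlh1* (gene ID 227631, minus strand, chr2:25842995-25847248) had its start-site region, chr2:25847059-25847671, in every list from E16.5 on and in neither E13.5 list. This region covered all 250 bases of the window with 3 CACGTG motifs in the E16.5 control, E16.5 knockout, P0 and P3 lists, and none of them at E13.5. The nearest E13.5 peaks were 3.23 kb (control) and 10.5 kb (knockout) from the start. The peak centre lay 123, 61, 129 and 173 bp before the start in the 4 later lists. Absence from both E13.5 lists with presence in both E16.5 lists was found at 2.15% of all genes, and the full *Sohlh1* pattern at 1.21%.

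By contrast, a region 10.8 kb downstream (chr2:25836122-25836730), beyond the end of the short gene, was held by all 4 embryonic lists and by neither postnatal list. The region 3.48 kb upstream was in the E13.5 control list alone. The last region, 16.6 kb upstream at an outer end of the potassium channel gene *Kcnt1*, was in all 6 lists. The window had 3 peaks in E13.5 control, 2 in E13.5 knockout, 3 in both E16.5 lists and 2 each at P0 and P3. The count alone hides the exchange of one region for another.

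*Sohlh2* (gene ID 74434, plus strand, chr3:55182044-55209957), whose product dimerises with SOHLH1, differed from it: its start site had a peak in every list. The start region, chr3:55181745-55182308, was centred 19 and 42 bp before the start at E13.5 (control, knockout), 0 and 6 bp after it at E16.5, 14 bp after it at P0 and 49 bp before it at P3. The centre stayed close to the start in every list. A second region in all 6 lists lay 45.0 kb downstream of the start, past the end of the gene (chr3:55226716-55227410). The window had 2 peaks in every list but E16.5 knockout, which had 1 more, 40.6 kb downstream of the start. No peak was found within the *Sohlh2* bounds other than at the start.

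*Dmrt1* (gene ID 50796, chr19:25505618-25604328) had most of its open regions in the E13.5 lists and fewer from E16.5 on. Its 138.7 kb window had 9 peaks in each E13.5 list, 3 in E16.5 control, 4 in E16.5 knockout and 5 each at P0 and P3. A fall of at least 2-fold was seen in both genotypes, as at 7.47% of all genes tested. Within a single genotype such a fall was found at 16.9% (control) and 12.7% (knockout) of the genes tested. *Dmrt1* was the only one of the 6 in either.

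The regions absent after E13.5 lay inside the gene and below it. Both E13.5 lists, and no later list, held regions 11.5 kb (chr19:25516802-25517338), 18.7 kb (chr19:25524099-25524614) and 92.3 kb (chr19:25597671-25598203) above the lower outer end, and 16.9 kb below it (chr19:25488454-25488978). Another region inside the gene, 29.4 kb above that end, was in the E13.5 knockout list alone, and one 8.11 kb below it was in the E13.5 control list alone. No list from E16.5 on had a peak inside *Dmrt1* apart from that at the lower end. At P0 and P3 a region 18.7 kb below the lower end appeared (chr19:25486663-25487192). It is not the E13.5 region at 16.9 kb, with which it shares no base.

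Of the *Dmrt1* window, 3 regions were in all 6 lists: at the lower outer end (chr19:25505315-25505947), 1836 bp beyond the upper outer end, and at an outer end of the neighbouring gene *Dmrt3*. The peak at the lower end was centred 79 and 50 bp above it at E13.5 (control, knockout), 40 and 24 bp above it at E16.5, 38 bp below it at P0 and 53 bp below it at P3. Both genotypes of a stage thus lay closer together than the first and last stage. Over all peaks overlapping between E13.5 control and P3 the median distance of centres was 33 bp and the upper quartile 75 bp. The start of *Dmrt3*, a DM domain gene inside the window, had a peak in both E13.5 lists, in E16.5 knockout cells and at P3, but in neither the E16.5 control nor the P0 list.

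*Dmrtb1* (gene ID 56296, minus strand, chr4:107676288-107704011) had few peaks at E13.5 and more at E16.5. Its window had 1 peak in E13.5 control, 2 in E13.5 knockout, 4 in E16.5 control, 5 in E16.5 knockout, 3 at P0 and 2 at P3. The region over its start at position 107683589, chr4:107683417-107683973, was in the E13.5 knockout, both E16.5 and the P0 lists. The E13.5 control and the P3 list had no peak nearer to this start than 9.09 and 9.21 kb. From P0 to P3, *Dmrtb1* was the 1 gene of the 6 that lost its start-site peak, as did 5.38% of all genes.

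A second *Dmrtb1* region, 17.3 kb upstream of the start annotated farthest upstream and inside the gene's outer bounds (chr4:107701110-107702044), was in every list from E16.5 on and in neither E13.5 list. It shares its position with the overlapping lncRNA gene *1700047F07Rik*. The region 10034 bp downstream of that start, past the lower end of the gene (chr4:107673882-107674511), was in all 6 lists. Regions in a single list lay 20.1 kb upstream (E16.5 control), 21.5 kb upstream and 23.2 kb downstream (both E16.5 knockout). The first of these lay at the upper outer end of the gene.

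**Figure D3:**
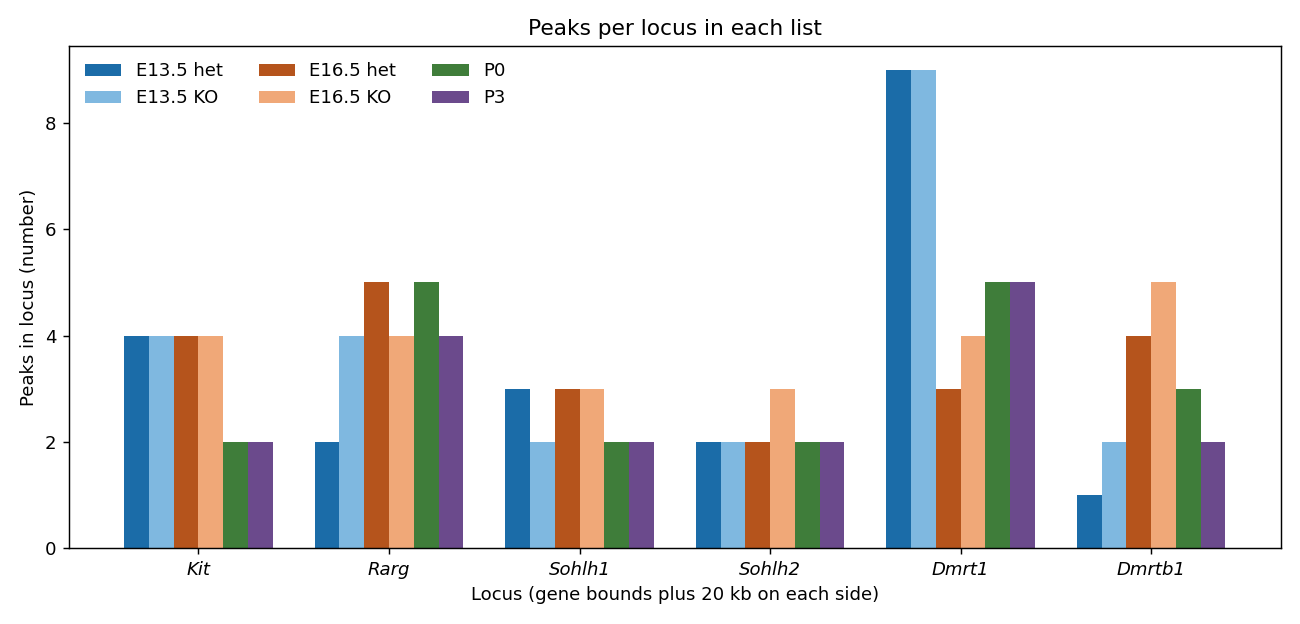
Number of peaks (y axis, from 0) in the window of each gene, its bounds plus 20 kb on each side, in the 6 lists (bars). Dmrt1 falls from 9 peaks in both E13.5 lists to 3 and 4 at E16.5, Kit from 4 in the embryonic lists to 2 after birth, and Dmrtb1 rises from 1 and 2 to 4 and 5.

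Between E13.5 and E16.5 the peak numbers of the 6 genes therefore differed in both directions. Peaks at least doubled in control cells at 2 genes, *Rarg* and *Dmrtb1*, against 18.6% of the 19054 genes tested. The same held at 1 gene in knockout cells, *Dmrtb1*, against 21% of the 19081 genes tested. Start-site peaks were gained at 3 genes in control cells, *Rarg*, *Sohlh1* and *Dmrtb1*, against 3.97% of all genes. In knockout cells they were gained at 1, *Sohlh1*, against 4.02%. With 50 kb on each side in place of 20 kb, *Rarg* went from 5 to 8 peaks in control cells and *Dmrtb1* from 5 to 6 in knockout cells, which no longer doubles the number. Counting only peaks nearest to a start, *Dmrtb1* went from 2 to 3 in knockout cells.

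In all, the windows of the 6 genes held 21 and 23 peaks at E13.5 (control, knockout), the same 21 and 23 at E16.5, then 19 (P0) and 17 (P3). The sum was thus equal at E13.5 and E16.5 in each genotype and lower at P0 and P3, while single genes rose or fell. As the lists differ in length, this came to 5.19, 5.81, 3.91, 4.03, 2.82 and 3.8 of every 10000 peaks of the list. Per 100 kb of window the 6 genes together had 4.18, 4.57, 4.18, 4.57, 3.78 and 3.38 peaks, against 2.62, 2.62, 2.69, 2.82, 3.02 and 2.38 over all protein-coding genes. The pooled density was above that of all genes in each list, but single genes fell below it. *Kit* had 1.64 peaks per 100 kb at P0 and at P3, *Dmrtb1* 1.48 in E13.5 control and *Dmrt1* 2.16 in E16.5 control.

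The 41 regions of the 6 windows were sorted by place, with no share over the genome computed for each place. Of the 6 regions at a start site of one of these genes, 2 were in all 6 lists and 0 in a single list. Of the 13 regions elsewhere within the gene bounds, 0 were in all 6 lists and 5 in a single list, and a region there was held by a median of 2 lists. Of these 13, 8 were in *Kit* and 4 in *Dmrt1*, so they describe mainly those genes. Of the 8 at a start or end of another gene, 2 were in all 6 lists. Regions in all 6 lists numbered 9 of 41 (22.0%), against 16.3% of the 107032 regions of the genome. Regions of the E13.5 lists alone made up 12 of 41 (29.3%), against 15.4%, with 6 of the 12 at *Dmrt1* and 4 at *Kit*. Regions absent from both E13.5 lists made up 15 of 41 (36.6%), against 55.0%.

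**Figure D4:**
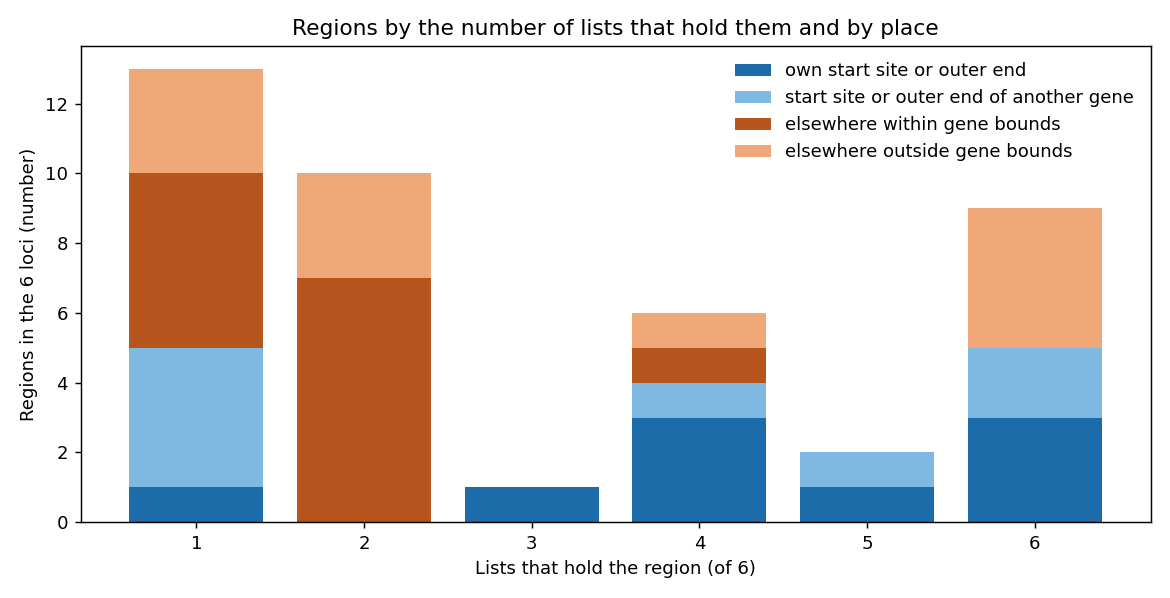
Number of open regions in the 6 windows (y axis, from 0) by how many of the 6 lists held them (x axis) and by place (colour). No region elsewhere within the gene bounds was in all 6 lists, while 3 of the 9 regions present in all lists were at an own start site or outer end. The regions elsewhere within gene bounds were mostly those of Kit and Dmrt1, and no share over the genome was computed by place.

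Peaks were followed from one stage to the next. Of the peaks in these windows, 11 of 21 of E13.5 control and 14 of 23 of E13.5 knockout cells were found again at E16.5 in the same genotype (52.4% and 60.9%). Over the whole lists the shares were 56.7% and 60.6%. From E16.5 to P0, 16 of 21 control peaks (76.2%) and 15 of 23 knockout peaks (65.2%) were found again, against 78.0% and 76.8% of the lists. Of the P0 peaks here, 16 of 19 (84.2%) were found at P3, against 55.7% of the P0 list (95% Wilson interval 55.3 to 56.0, for counting error over peaks only). That interval is for the whole list. None was computed for the 19 peaks here, where a single peak moves the share by several percentage points. The 3 P0 peaks that were not found at P3 were at *Dmrt1*, *Dmrtb1* and *Rarg*, the last at the start of the neighbour *Gm9918*. Of the 17 P3 peaks, 16 were present at P0 (94.1%), against 83.6% of the P3 list. The exception was at the start of *Dmrt3*.

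Between *Morc1* genotypes the windows differed by a few peaks, in numbers that repeated at both stages. At E13.5, 3 of 21 control peaks and 5 of 23 knockout peaks had no overlap in the other genotype, and at E16.5 again 3 of 21 and 5 of 23 did not. As shares, these are 14.3% and 21.7% at each stage. That the counts were equal at the 2 stages depended on the flank of 20 kb. Gene bounds alone gave 1 and 4 at E13.5 (control, knockout) and 2 and 1 at E16.5. Over the whole lists the shares were 21.3% (E13.5 control), 19.6% (E13.5 knockout), 18.6% (E16.5 control) and 23.5% (E16.5 knockout). A single peak moves the shares of these windows by several percentage points, and no difference from the whole lists was tested.

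At E13.5 the peaks found in knockout cells alone included 2 at start sites, those of *Rarg* and *Dmrtb1*. A start-site peak in the knockout and not in the control list was found at 1.83% of all genes, and the reverse, seen at none of the 6, at 1.35%. The other 3 knockout-only peaks were inside *Kit*, inside *Dmrt1* and at the start of *Itgb7*. The 3 control-only peaks lay inside *Kit*, upstream of *Sohlh1* and below *Dmrt1*, none at a start site of the 6. Both start-site peaks found in the E13.5 knockout list were present in both genotypes at E16.5. The number of peaks was at least doubled in knockout cells at these same 2 genes (7.27% of the 17926 genes tested). It fell at least 2-fold at none of the 6 (8.4% of the genes tested). With 50 kb on each side *Rarg* had 5 and 7 peaks (control, knockout), less than a doubling, and with 10 kb *Sohlh1* had 2 and 1. Each start-site difference rests on 1 peak called in 1 list.

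At E16.5 the genotypes had the same start-site peaks at all 6 genes. Over all genes, a start-site peak was present in the knockout list alone at 2.6% and in the control list alone at 1.71%. The 5 knockout-only peaks lay inside *Kit*, beyond the end of *Sohlh2*, at the start of *Dmrt3* in the *Dmrt1* window, and on both sides of *Dmrtb1*. The 3 control-only peaks lay inside *Kit*, at the lower end of *Rarg* and at the upper outer end of *Dmrtb1*. On the minus strand, that end is the 5′ end of the *Dmrtb1* bounds. The promoter table has no start there, so this peak was not counted as a start-site peak. The 16 genotype-specific peaks of both stages thus fell in all 6 windows, with no more than 4 in any of them.

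Related genes were read at their start sites in the same 6 lists. Of 18 genes of retinoic acid transport, metabolism and reception, 8 had a start-site peak in all 6 lists, 3 in none and 7 in some. Over all 21887 protein-coding genes, 54.0% had one in all 6 lists and 31.8% in none. *Rxrb*, a partner receptor of RARs, had a peak in both E13.5 lists and E16.5 control cells and not afterwards. *Stra6*, a retinol transporter, had one in E16.5 knockout cells and at P0. *Dhrs3*, which reduces retinal to retinol, had one in both E13.5 lists alone. Picked after their values were seen, *Stra8*, a gatekeeper of meiosis induced by retinoic acid, had a peak in E13.5 knockout, P0 and P3 lists, and *Cyp26a1*, which degrades retinoic acid, in both E16.5 lists. The receptors *Rara*, *Rarb*, *Rxra* and *Rxrg*, also named after their values were seen, had a start-site peak in all 6 lists, unlike *Rarg*.

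Of 14 genes of KIT signalling, 9 had a start-site peak in all 6 lists, 2 in none and 3 in some. Among the 9 was *Kitl*, the KIT ligand (named after its values were seen). The shares over all genes were 54.0% in all 6 lists and 31.8% in none. *Akt1*, a kinase downstream of KIT, had one in E16.5 knockout cells alone. *Sos1*, an exchange factor for RAS, had one in all lists but P3. *Src*, a kinase that KIT recruits, had one from E16.5 on, the same pattern as *Sohlh1*.

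Of the 6 other DM domain genes, 3 had a start-site peak in all 6 lists, 1 in none, and *Dmrt3* and *Dmrta2* in some; *Dmrta2* lacked one at P3 only. Of 12 further germ-line genes, 4 had one in all lists, 2 in none and 6 in some. Here too the shares over all genes were 54.0% in all lists and 31.8% in none. *Sall4*, a transcription factor of undifferentiated germ cells, lacked one in E16.5 control cells only. *Neurog3*, a marker of progenitor spermatogonia, had one at P0 only. *Sox3*, a transcription factor of progenitors, had one in E13.5 control and both E16.5 lists. *Nobox*, an oocyte transcription factor named after its values were seen, had the *Rarg* pattern, absent from E13.5 control cells alone; 0.475% of all genes shared it.

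Genes with the same peak numbers in all 6 lists were sought among protein-coding genes whose windows did not overlap those above, and of those the nearest in window length are named. *Kit* had 2 such genes, *Kcnk12* and *6030458C11Rik*, *Rarg* had 1, *Pccb*, and *Dmrtb1* had 1, *Plg*. *Sohlh1* had 12, nearest in length *Tmem35a*, *Bzw1* and *Sft2d1*, and *Sohlh2* had 60, nearest *C1qtnf3*, *2310022B05Rik* and *Tbc1d10a*. *Dmrt1* had none. *Acoxl* and *Zbtb20* differed from it by 1 peak in all, in windows of 327.5 and 798.7 kb. Equal numbers over 6 lists are a weak likeness, as most windows hold few peaks: the median over all genes was 2.0 in each list.

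The bound of 20 kb decides which regions count. Among the outermost regions included were those 18.4 kb below *Dmrt1*, 18.0 kb above it, 16.8 kb past *Sohlh2* and 16.3 kb from *Sohlh1*. Regions left out included those 21.6 kb above *Rarg* in all 6 lists, 22.8 kb below *Dmrtb1* in both E13.5 lists and E16.5 control cells, and 25.9 kb below *Dmrt1* in both E13.5 lists. A region left out above *Dmrt1*, nearer than the one below it, was in both E13.5 lists and at P3.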

How the data were processed

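ATAC-seq peak lists of male germ cells were used, 1 per stage and genotype for 16 samples. The authors deposited each list as chromosome, start and end, with nearly all peaks of 1 width and no count, score or other value per peak. Per the submitters' processing notes, bcl2fastq 2.20, cutadapt 1.18, Bowtie2 2.3.4.1, deepTools 3.5.0, HOMER 4.10 and build mm10 were used. Their roles, the peak threshold and any pooling of samples are not given in the sources used here. A fixed width keeps a peak's position and not its breadth. Depth is unknown.

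Positions were read as GRCm38 and written 1-based. Of the protein-coding gene ends, 25.6% to 27.3% had a peak within 250 bp, against 2.44% to 3.47% of positions shifted by 10 kb. Gene bounds came from a RefSeq table of GRCm38.p6 and starts from RefSeq promoter windows, which matched 5 of the 6 genes; 17492 of 21887 protein-coding genes have a start there, and the others were read at both outer ends, a wider target. Peaks sharing at least 1 bp counted as overlapping. Counts were compared with bedtools 2.31.1 (8 of 8 equal) and tested on simulated data (1600 of 1600 unmatched peaks found). Python 3.11.15, pandas 2.3.3 and scipy 1.17.1 were used.

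The 6 genes, the lists of related genes and the alternatives (windows, overlap rules) were chosen with earlier results of these data known. Named were the 6 genes, at most 3 genes per related list that differed between lists, in list order, and genes with equal peak numbers; others are marked in the text. No statistical test was made, as each group has 1 list.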

Additional observations from a re-analysis of the deposited data

Results flagged for a closer look

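The difference between genotypes at *Rarg* changed sign between the embryonic stages: knockout minus control peaks in its window were 2 at E13.5 (4 against 2) and -1 at E16.5 (4 against 5). As each group has 1 list, this change of sign was not tested. The E16.5 difference was 0 with 10 kb on each side (3 and 3) and when only peaks nearest to a start were counted (2 and 2), so the change of sign was lost there. The E13.5 peaks were at the outer start of *Rarg* and at the start of *Itgb7*, and the E16.5 peak was at the lower end of *Rarg*.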

How the results depend on the processing

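No paired analysis was possible because the files give positions per group and nothing per sample; for the same reason no replicate was left out, and without a score no stricter threshold was tried. The results are counts, compared by a factor of 1.5; of 57 recomputed summary counts 36 stayed within it and 21 did not. Gene bounds alone gave 9 and 12 peaks at E13.5 (control, knockout), then 12 and 11 for E16.5, 9 for P0 and 8 for P3. A flank of 50 kb gave 35, 37, 33, 35 and, at P3, 27. A flank of 10 kb gave 12 at P0. Peaks nearest to a start of the 6 genes numbered 13 and 15 at E16.5 and 11 at P3. Genotype-specific peaks became 1 (E13.5 control) and 1 (E16.5 knockout) within gene bounds, 3 (E16.5 knockout) with 10 kb, and 5 (E13.5 control), 7 and 9 (E16.5 control, knockout) with 50 kb. Fewer or more bases searched change these counts by construction. The other overlap rules and start windows of 500 and 2000 bp moved no summary count by more than that factor. Of 144 counts of single genes, 79 moved by more.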

Other observations

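The 3 CACGTG motifs before the *Sohlh1* start led to a look at other start windows with this motif, chosen after that window was seen. Of 141 windows with at least 2, a peak was present in all 6 lists at 102 (72.3%), against 39.6% of all 32851 windows, and in no list at 13 (9.22%), against 44.6%. Base composition was not matched between these windows, and its part in the difference was not tested. The *Sohlh1* pattern, absent at E13.5 and present in the 4 later lists, was found at 3 of the 141 windows (2.13%), against 1.47% of all windows. *Sohlh1* itself is among these 3.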
